A study of Mus musculus with 6 samples.

Results

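The genes described here encode the machinery of chromosome replication and of entry into S phase: factors that load and start the replicative helicase, DNA polymerases and their clamp, enzymes of deoxynucleotide synthesis, histone assembly factors, and the E2F and cyclin E genes that control the step from G1 to S. They are 39 listed genes, taken as the array probes whose RefSeq accession belongs to one of them, out of 36983 genes and unnamed features on the array. All 39 had a probe, 45 probes in all. Of these, 36 genes were well above background on at least 3 of the 6 arrays and were tested among 26886 genes and features, and all 36 were in fact well above background on every array. Orc1, Ccne2 and Cdc6 were not tested.

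Whole pituitaries came from 3 Jmjd2a-/- females (KO) and 3 Jmjd2a+/+ littermates (WT), 1 animal per one-colour Agilent array. Jmjd2a is the older name of Kdm4a, a demethylase of histone H3 lysines. All mice were virgin, 8 weeks old and of C57BL6 background, and all had been exposed to bedding soiled by a stud male, which activates the oestrus cycle, 24 h before dissection. The sources used here give neither how the allele was made nor the cycle stage each female had reached. The comparison asks which pituitary transcripts depend on this demethylase.

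Replication is prepared in G1, when the origin recognition complex, Cdc6 and Cdt1 load the Mcm2 to Mcm7 hexamer onto DNA, and it starts when Cdc45 and the GINS complex turn the hexamer into an active helicase. Primase and polymerase alpha lay down primers, polymerases delta and epsilon extend them, and the Pcna ring, placed by replication factor C, holds them on the template. Most of these genes are transcribed under E2F factors as cells leave G1, so that their transcripts are abundant in tissues with many dividing cells. The adult pituitary renews slowly, and few of its cells are in S phase at a given moment.

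The arrays read between 34634 and 40567 probes well above background, and their 75th percentiles lay between 170 and 311 intensity units. Their number, 3 per group, limits the precision of every value. Levels are log2 values after subtraction of the array's own 75th percentile. On this scale the brighter Kdm4a probe gave 1.97 ± 0.15 (SD, n = 3) for WT and 1.35 ± 0.13 (SD, n = 3) for KO, with no overlap (exact two-sided permutation p = 0.1, the smallest that 3 arrays against 3 allow). The signal left in KO does not check the labels, because the deleted part of the gene is not given. The pituitary hormone transcripts were among the brightest on all arrays, and the 8 hormone and lineage markers (Prl, Gh, Pomc, Cga, Lhb, Fshb, Tshb and Pou1f1) had a median log2 fold change of -0.092, with 0 genes at an unadjusted p under 0.05. That median hides differences between animals. Fshb read 2.95, 6.44 and 3.85 in WT replicates 1, 2 and 3 and 4.41, 4.42 and 5.65 in KO replicates 1, 2 and 3. Prl, Gh, Pomc and Cga each spanned 0.78 to 0.88 over the 6 arrays. WT replicate 3 stood apart from the other arrays in the genes described here, so the counts over the members, and the values of single genes that it moves most, are also given without it. Every fold change is KO over WT (n = 3 arrays per group) with limma's standard error, and an adjusted p is limma's after Benjamini-Hochberg adjustment over all features tested.

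Transcripts for replication and S phase entry read lower in KO pituitaries than in WT, and no member passed the test after adjustment over all genes. All 36 members had a log2 fold change below 0, a direction shared by 60.7% of all genes and features tested. The members' median was -0.47 against -0.074 for all genes tested, and 35 of the 36 lay below that general median. With limma and Benjamini-Hochberg adjustment 0 members were called at an adjusted p under 0.05, as were 0% of all genes and features, and the lowest adjusted p of a member was 0.240. At an unadjusted p under 0.05, 14 members were lower and 0 higher, a share of 38.9%, whereas 8.81% of all genes were lower and 3.99% higher by the same measure. In 21 members every KO array lay below every WT array, which held for 13.4% of all genes, and in 0 members did every KO array lie above, against 7.23%.

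**Figure D1:**
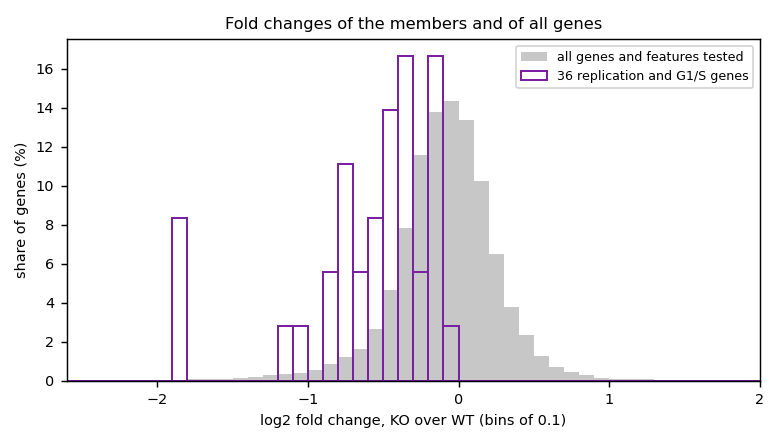
Share of genes (%) in bins of 0.1 of the log2 fold change, KO over WT, for all 26886 genes and features tested (grey) and for the 36 members (outlined). The members lie to the left of the bulk of genes, with medians of -0.47 and -0.074, and Rrm2, Uhrf1 and Tk1 form the bin near -1.9.

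These counts depend on the scaling of the arrays. Centring on each array's median moved the median of all genes from -0.074 to 0.087 and that of the members to -0.31, so that the distance between them remained -0.40 by construction. Under that scaling 31 members were below 0. At p under 0.05, 5 members were lower against 3.3% of all genes, and 6 members had no overlap against 3.73%. Among all genes at p under 0.05 the share lower in KO was 68.9% as processed here, 24.7% with median centring, 42.9% with quantile normalization and 46.8% in the authors' value table. With quantile normalization and in the authors' value table, 35 of 36 and 34 of 34 members were below 0. At p under 0.05, 13 members were lower with quantile normalization (5.08% of all genes) and 16 in the authors' value table (6.71%). The size of several differences also moved with the values used. Normexp background correction and the authors' value table gave -0.74 and -0.58 for Tk1, -1.19 and -1.13 for Rrm2, -1.07 and -0.96 for Uhrf1, and -0.48 and -0.37 for Mcm10. They gave -0.49 and -0.38 for Gins1, -0.53 and -0.47 for Gins2, -0.38 and -0.23 for Chaf1a, and -0.75 and -0.68 for Pole. Cdt1 read -0.79 with both, and Mcm3 read -0.61 and -0.63. For E2f1 and Gmnn the authors' value table gave -0.48 and -0.20, and for Pola2 normexp and quantile normalization both gave -0.22. All of these lie nearer to 0 than the values given gene by gene in the following paragraphs.

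The WT arrays were not alike. WT replicate 3 was the highest of the 6 arrays in 33 of 36 members (91.7%), against 19.2% of all genes tested, and WT replicate 1 was highest in 2, WT replicate 2 in 1 and a KO array in 0. The median standard deviation of a member was 0.39 among WT arrays and 0.12 among KO arrays (0.23 and 0.15 over all genes), and 35 of 36 members varied more in WT than in KO. Without WT replicate 3 the members' median was -0.29 against -0.080 for all genes, 33 of 36 members were below 0 (62.1% of all genes), and 11 were lower at p under 0.05 against 9.11% of all genes, with 0 higher. Of the 14 members with p under 0.05 on all arrays, 10 kept it, Mcm7, Prim2, Chaf1a and Ccne1 did not, and Pole passed only then. In the 21 members without overlap the lowest WT array, which sets the gap to KO, was WT replicate 2 in 15, WT replicate 1 in 6 and WT replicate 3 in 0. Fewer cells in cycle and less of each transcript per cell cannot be told apart in whole glands.

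**Figure D2:**
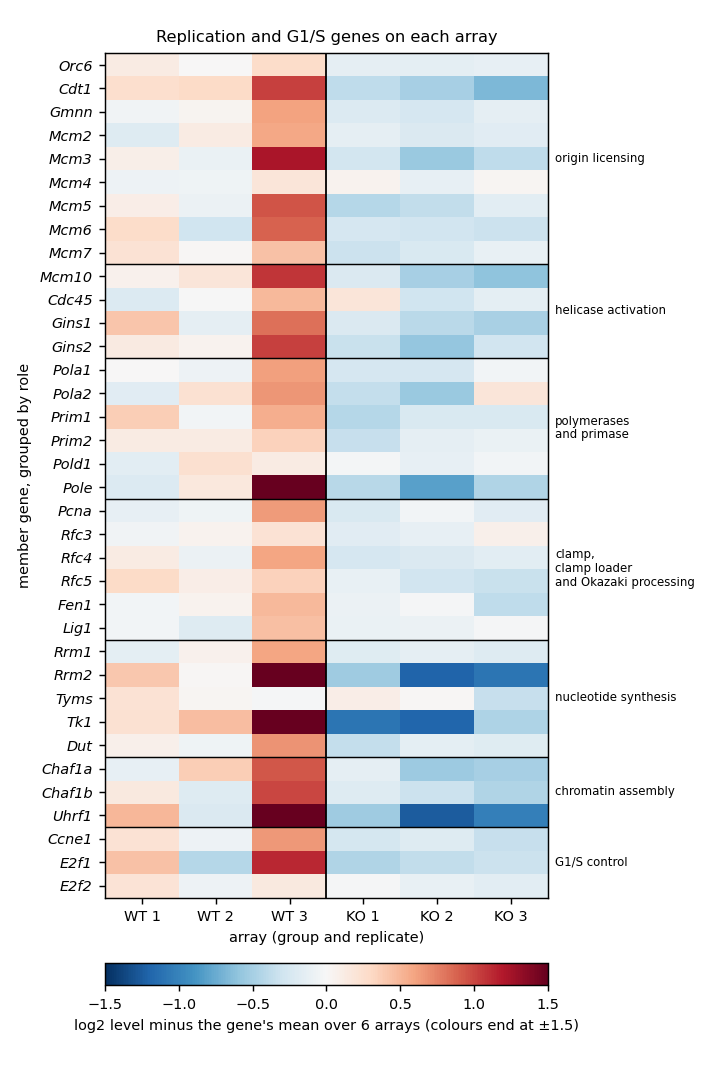
Log2 level of each of the 36 tested members on each array minus the member's own mean over the 6 arrays (colour scale ending at ±1.5), in rows grouped by role, with WT arrays left of the line and KO arrays right of it. WT replicate 3 is the highest array in 33 members, and the KO columns are mostly blue.

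Promoter sequence was examined because E2F factors are the shared regulators of this group. RefSeq promoters of GRCm38.p6, from 250 bases before the transcription start to 50 after it, were found for 32 of the 39 genes and not for Pole, Prim2, Gmnn, Mcm4, Ccne2, Gins1 and Gins2. The letters searched on both strands were the E2F forms TTTCCCGC, TTTCGCGC, TTTGCCGC and TTTGGCGC, some of which can overlap one another on opposite strands, and CCAAT. An E2F form was found in 13 of the 32 members (40.6%), against 2.60% of all 27025 genes with a promoter. CCAAT was found in 18 (56.2%), against 41.1%. Among members whose KO and WT arrays did not overlap, 5 of 16 held an E2F form, and among the other tested members 6 of 14 did. A match describes letters only, and no binding was measured. The 4 members with the smallest p that hold a match are printed here, 5′ to 3′ on the gene's strand, with the E2F letters in capitals. For Mcm7 and Uhrf1 the run is the 250 bases before the start (chr5:138171884-138172133, minus strand, and chr17:56304063-56304312, plus strand). Each of these genes also has another RefSeq promoter, which holds no E2F form. A further match of Mcm7, TTTCGCGC at bases 17 to 24 after the start, lies outside the printed run. For Cdt1 and Mcm3 the matches lie just after the start, and the run is the stretch around them (chr8:122568036-122568064, plus strand, and chr1:20820265-20820294, minus strand).
Mcm7: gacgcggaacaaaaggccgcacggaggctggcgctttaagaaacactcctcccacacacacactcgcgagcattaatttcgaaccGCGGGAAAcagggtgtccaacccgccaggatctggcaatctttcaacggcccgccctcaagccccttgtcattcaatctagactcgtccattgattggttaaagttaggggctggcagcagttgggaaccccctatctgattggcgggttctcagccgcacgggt
Uhrf1: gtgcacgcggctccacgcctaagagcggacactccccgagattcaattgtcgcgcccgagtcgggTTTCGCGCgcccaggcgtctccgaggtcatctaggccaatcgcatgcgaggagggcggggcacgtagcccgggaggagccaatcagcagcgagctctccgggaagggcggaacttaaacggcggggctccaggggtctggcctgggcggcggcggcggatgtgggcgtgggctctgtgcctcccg
Cdt1: ggaactaccttTTTGGCGCcatggcgcaa
Mcm3: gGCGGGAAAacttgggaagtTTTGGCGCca

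Cdt1, which brings the helicase to origins in G1, had the smallest p of all members. It read 0.22, 0.26 and 0.996 in WT replicates 1, 2 and 3 and -0.41, -0.53 and -0.71 in KO replicates 1, 2 and 3. The groups did not overlap, and the KO mean stood at 48.6% of the WT mean, a log2 fold change of -1.04 ± 0.23 (adjusted p = 0.240). Without WT replicate 3 it was -0.79 ± 0.15 (adjusted p = 0.208), so Cdt1 held most of its difference on the other WT arrays. Gmnn, whose product geminin binds Cdt1 and blocks renewed licensing, read -2.34 to -1.68 in WT and -2.53 to -2.41 in KO, without overlap and with a log2 fold change of -0.39 ± 0.19 (-0.19 ± 0.13 without WT replicate 3). Orc6, a subunit of the origin recognition complex, was steady within each group, at 1.996 to 2.25 in WT and 1.84 to 1.86 in KO, and had a value of -0.27 ± 0.12. The probe of Orc1, the largest subunit of that complex, was well above background on 0 of 6 arrays. Both probes of Cdc6, the loader that works with Cdt1, were well above background on only 1 array, WT replicate 3, and on 0 KO arrays.

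The 6 subunits of the Mcm hexamer, which act in equal numbers in the complex, had log2 fold changes from -0.81 to -0.026, and the differences between subunits were not tested. Mcm7 read 2.33, 2.13 and 2.55 in WT and 1.79, 1.88 and 2.01 in KO (replicates 1, 2 and 3 throughout), without overlap, a log2 fold change of -0.44 ± 0.15 (adjusted p = 0.341). Mcm3 read 0.38, 0.20 and 1.52 in WT and 0.014, -0.27 and -0.082 in KO, also without overlap, at -0.81 ± 0.34 (adjusted p = 0.390). Mcm5 read 0.064, -0.13 and 0.91 in WT and -0.46, -0.41 and -0.20 in KO, without overlap, at -0.64 ± 0.27 (adjusted p = 0.391). In these 3 subunits every KO array lay below every WT array, which held for 13.4% of all genes. Mcm6 read 2.69, 2.11 and 3.30 in WT against a narrow 2.17, 2.12 and 2.09 in KO, and its groups overlapped because WT replicate 2 was at the KO level (-0.57 ± 0.28). Mcm2 read -0.21, 0.11 and 0.57 in WT and -0.15, -0.23 and -0.18 in KO, overlapping, at -0.34 ± 0.20. Mcm4 read 2.04, 2.06 and 2.29 in WT and 2.17, 1.99 and 2.15 in KO. Its log2 fold change of -0.026 ± 0.13 was the smallest of the group, and it turned to 0.056 without WT replicate 3 and to 0.14 with median centring. Without WT replicate 3 the other 5 subunits read between -0.40 ± 0.15 (Mcm3) and -0.14 ± 0.15 (Mcm2).

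**Figure D3:**
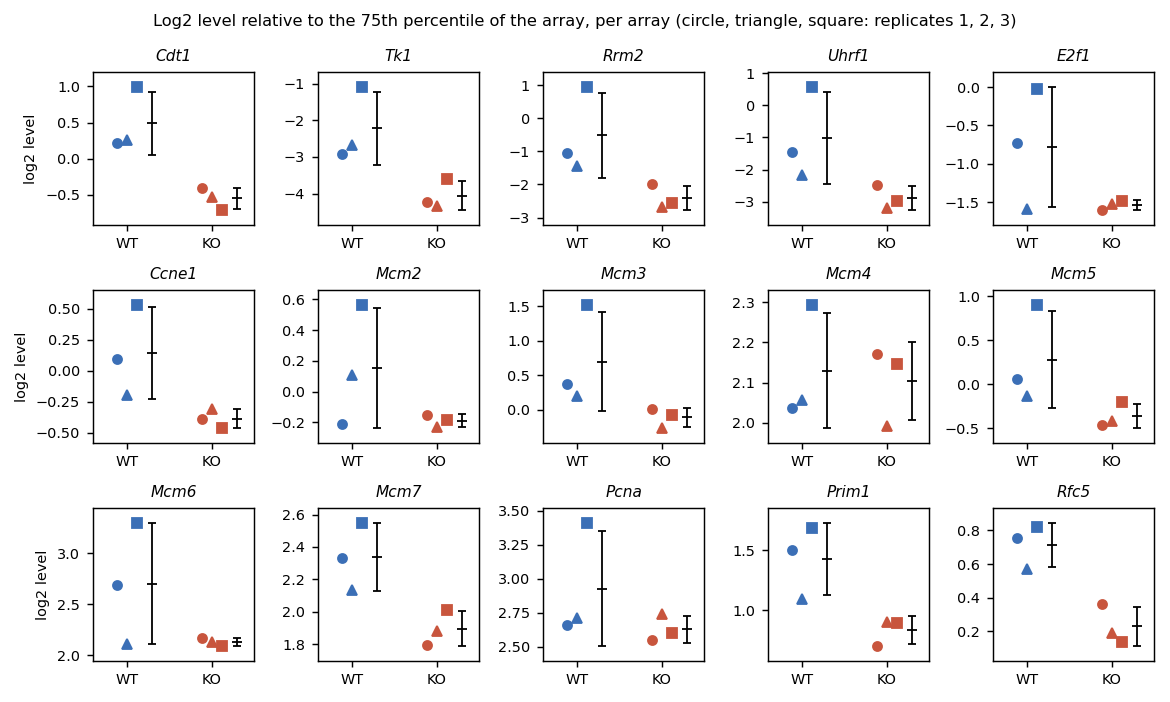
Log2 level relative to the array's 75th percentile for 15 members, by group, with circles, triangles and squares for replicates 1, 2 and 3 and a black mean ± SD beside each group of 3 arrays. The square of WT replicate 3 is the highest point in all 15 panels, and the KO points of Cdt1, Tk1, Prim1 and Rfc5 lie below all WT points.

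Of the factors that turn the loaded hexamer into a helicase, 3 of 4 had p under 0.05 and no overlap. Over all genes, 8.81% were lower at that p and 13.4% had every KO array below every WT array. Mcm10, which helps to start unwinding, read -1.94, -1.83 and -0.93 in WT and -2.22, -2.51 and -2.61 in KO (-0.88 ± 0.28, adjusted p = 0.333). Gins1, a GINS subunit, read -1.54, -2.10 and -1.14 in WT and -2.18, -2.36 and -2.44 in KO, so that WT replicate 2 came close to KO replicate 1 (-0.74 ± 0.25, adjusted p = 0.339). Gins2, a second subunit, read -1.30, -1.38 and -0.41 in WT and -1.76, -2.01 and -1.72 in KO (-0.80 ± 0.27, adjusted p = 0.344). Mcm10, Gins1 and Gins2 were also lower at p under 0.05 without WT replicate 3 (9.11% of all genes), at -0.56 ± 0.16, -0.51 ± 0.20 and -0.49 ± 0.15. Cdc45, the remaining helicase component, had a smaller value. It read -3.18 to -2.50 in WT and -3.28 to -2.79 in KO, and its log2 fold change of -0.18 ± 0.22 turned to 0.019 ± 0.19 without that array.

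Of the 6 polymerase and primase genes, 2 were lower at p under 0.05 on all arrays (33.3%, against 8.81% of all genes), both of them primase subunits. In 3 of the 6 every KO array lay below every WT array (13.4% of all genes). Prim1, the catalytic primase subunit, read 1.502, 1.095 and 1.68 in WT and 0.71, 0.91 and 0.90 in KO, without overlap, with KO at 66.5% of WT (-0.59 ± 0.18, adjusted p = 0.319). Prim2, its partner, read 0.13, 0.13 and 0.36 in WT and -0.34, -0.13 and -0.095 in KO, without overlap (-0.39 ± 0.13, adjusted p = 0.346). Once WT replicate 3 was left out their fold changes were -0.46 ± 0.17 and -0.32 ± 0.14, and Prim2 no longer had p under 0.05. Pole, the catalytic subunit of the leading strand polymerase epsilon, had no overlap either, but its size came largely from that array: WT read -1.71, -1.35 and 0.23 and KO -1.93, -2.32 and -1.96, a fold change of -1.13 ± 0.48 (adjusted p = 0.390) with it and -0.54 ± 0.19 without it. The polymerase alpha subunits Pola1 and Pola2 had overlapping groups, at -0.37 ± 0.20 and -0.48 ± 0.27 (-0.15 ± 0.14 and -0.27 ± 0.26 without WT replicate 3). Pold1, the catalytic subunit of polymerase delta, read 0.93 to 1.33 in WT and 0.97 to 1.06 in KO, at -0.13 ± 0.14.

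The clamp and its loader gave small differences. Pcna, the sliding clamp often used as a marker of proliferation, read 2.66, 2.71 and 3.41 in WT and 2.55, 2.74 and 2.60 in KO. The other WT arrays lay within the KO range, and the log2 fold change of -0.30 ± 0.22 became -0.055 ± 0.13 without WT replicate 3. Rfc5, a subunit of the clamp loader, varied little among the WT arrays, with WT at 0.76, 0.57 and 0.82 and KO at 0.36, 0.19 and 0.14. They did not overlap, and the value of -0.49 ± 0.13 (adjusted p = 0.300) was close to the -0.43 ± 0.15 found without WT replicate 3. Rfc4 also had no overlap (-0.42 ± 0.19, -0.23 ± 0.14 without WT replicate 3, and -0.59 ± 0.23 on its second probe over all arrays), while Rfc3 did overlap at -0.15 ± 0.13. The flap endonuclease gene Fen1 and the ligase gene Lig1, which finish the lagging strand, had values of -0.33 ± 0.18 and -0.14 ± 0.18. Without WT replicate 3 Fen1, like Rfc3, lay nearer to 0 (-0.17 ± 0.16 and -0.079 ± 0.14), and Lig1 turned to 0.051.

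Nucleotide synthesis held some of the largest differences and also one of the smallest. Rrm2, the S phase subunit of ribonucleotide reductase, read -1.06, -1.45 and 0.95 in WT and -1.9998, -2.67 and -2.56 in KO, with KO at 27.0% of WT (-1.89 ± 0.60, adjusted p = 0.332). Tk1, the thymidine kinase of S phase, read -2.91, -2.68 and -1.08 in WT and -4.24, -4.33 and -3.61 in KO, with KO at 28.0% of WT (-1.83 ± 0.48, adjusted p = 0.291). Neither had an overlap between the groups, although WT replicate 3 stood well above the other WT arrays in both. Without WT replicate 3 the values were -1.16 ± 0.25 for Rrm2 and -1.27 ± 0.25 for Tk1 (adjusted p = 0.231 and 0.209). Rrm1, the large reductase subunit, read 0.74 to 1.48 in WT and 0.70 to 0.75 in KO, overlapping (-0.34 ± 0.20, and -0.12 ± 0.14 without WT replicate 3). Dut, which removes dUTP, had no overlap (-0.46 ± 0.21, and -0.24 ± 0.14 without that array). Tyms, which makes dTMP, was among the 3 members not highest in WT replicate 3: its arrays read -1.42 to -1.18 in WT and -1.75 to -1.29 in KO (-0.15 ± 0.16).

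The chromatin assembly genes all read lower without overlap, as did 13.4% of all genes. Uhrf1, which carries DNA methylation through replication, read -1.46, -2.18 and 0.58 in WT and -2.48, -3.20 and -2.97 in KO, with KO at 27.4% of WT (-1.87 ± 0.66, adjusted p = 0.349). Its WT arrays spanned more than the gap between the groups, and the value was -1.07 ± 0.30 without WT replicate 3. Chaf1a, the large subunit of the histone chaperone CAF-1, read -2.68, -2.19 and -1.64 in WT and -2.70, -3.11 and -3.06 in KO, so that WT replicate 1 and KO replicate 1 nearly met (-0.79 ± 0.27, adjusted p = 0.346). It was -0.52 ± 0.21 without WT replicate 3. Chaf1b, the middle subunit, gave -0.64 ± 0.29 on its brighter probe and -1.33 ± 0.44 on the other, and the brighter probe gave -0.30 ± 0.16 without WT replicate 3.

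Of the regulators of the G1 to S step, only Ccne1 was lower at p under 0.05 on all arrays (8.81% of all genes), and 0 were without WT replicate 3 (9.11%). Ccne1, the cyclin E1 gene whose product drives Cdk2, read 0.097, -0.20 and 0.53 in WT and -0.39, -0.31 and -0.46 in KO, without overlap (-0.53 ± 0.20, adjusted p = 0.362). The value was -0.34 ± 0.15 without WT replicate 3. E2f1, an activator of this gene programme, read -0.72, -1.59 and -0.023 in WT and -1.60, -1.52 and -1.48 in KO. WT replicate 2 was at the KO level, so the groups overlapped (-0.76 ± 0.36, and -0.38 ± 0.26 without WT replicate 3). E2f2, a related activator, read 1.47 to 1.75 in WT and 1.38 to 1.53 in KO (-0.19 ± 0.13) and was highest in WT replicate 1. The probe of Ccne2, the cyclin E2 gene, read -6.79, -7.07 and -7.08 in WT and -7.36, -5.94 and -7.62 in KO, and 0 of 6 arrays had it well above background.

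**Figure D4:**
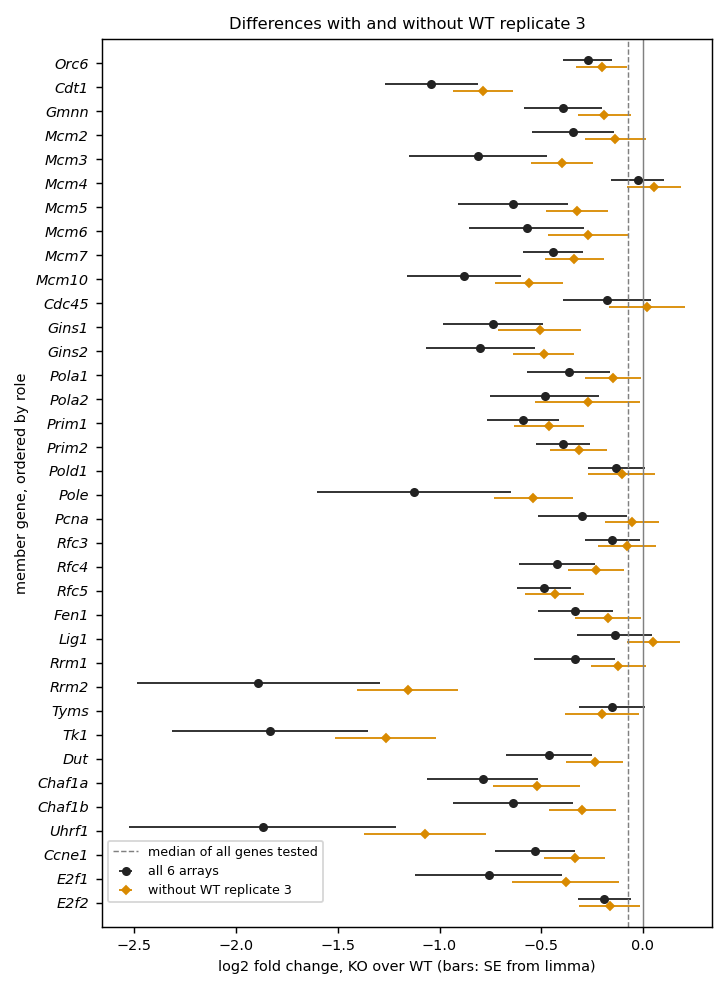
Log2 fold change, KO over WT, of the 36 tested members in order of role, with standard errors from limma, on all 6 arrays (black circles) and without WT replicate 3 (orange diamonds), and with the median of all genes tested as a dashed line. The diamonds of 34 members lie nearer to 0, and those of Cdc45, Lig1 and Mcm4 lie above it.

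Other genes of the pathway, outside the 39, formed lists whose medians are to be read against the -0.074 of all genes tested (0.087 with median centring). Of 37 further replication factors 33 were tested, with 5 lower (15.2%, against 8.81% of all genes) and 1 higher (3.03%, against 3.99%) at p under 0.05 and a median of -0.084. Leaving out WT replicate 3 gave 3 of 32 lower (9.11% of all genes) and 1 higher (3.03% of all genes), both near the shares of all genes. The one higher was Top1, the topoisomerase that relieves torsion ahead of the fork (0.77 ± 0.15). The lower ones included Mcm9, a relative of the hexamer subunits (-1.04 ± 0.21), Tipin, a fork protection factor (-0.58 ± 0.15), and Dscc1, part of an alternative clamp loader. Dscc1 passed the filter only through WT, at -4.25, -4.47 and -2.51, and was well above background on 0 of 3 KO arrays, so its place among the lower genes is no support for the list. Of 25 further regulators of the G1 to S step and nucleotide supply, 4 were lower (16%, against 8.81% of all genes) and 0 higher (median -0.14). Without WT replicate 3, 2 were lower (9.11% of all genes). The 4 were Ccna2, the cyclin of S phase (-1.80 ± 0.55, and -1.18 ± 0.34 without that array), the deoxynucleotide enzymes Dctd (-0.60 ± 0.16) and Dck (-0.49 ± 0.20), and Skp2, a ubiquitin ligase subunit (-0.44 ± 0.17). Of 9 further chromatin assembly genes 2 were lower (22.2%, against 8.81% of all genes), Mms22l (-0.35 ± 0.12) and the histone chaperone gene Asf1b (-1.11 ± 0.42). Tonsl read -0.51 ± 0.22 and Rbbp4 -0.23 ± 0.15 (list median -0.18). Leaving out WT replicate 3 gave 1 lower (9.11% of all genes). Without that array Asf1b, Tonsl and Rbbp4 read -0.61 ± 0.20, -0.31 ± 0.19 and -0.15 ± 0.15. In all of these lists 0 genes were called at an adjusted p under 0.05.

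The neighbouring stages of the cycle gave larger and smaller values. Of 17 tested mitotic genes, 13 were lower at p under 0.05 (76.5%, against 8.81% of all genes), with a median of -1.24. Among them were the kinetochore gene Ndc80 (-1.14 ± 0.28) and Ccnb2 (-1.59 ± 0.39). Without WT replicate 3, 12 were lower (9.11% of all genes) and the median was -0.85. Of 11 D-type cyclin, kinase and inhibitor genes, 2 were lower (18.2%, against 8.81% of all genes) and 1 higher (9.09%, against 3.99%), with a median of -0.035. The balance turned without WT replicate 3, to 1 lower (9.11% of all genes) and 2 higher (3.03% of all genes). The lower ones were the inhibitors Cdkn1c (-0.56 ± 0.18) and Cdkn2d (-0.37 ± 0.13), and the higher one was Cdkn1a, the p21 inhibitor of cyclin E kinase (0.60 ± 0.23, and 0.82 ± 0.19 without WT replicate 3). Cdkn2a, an inhibitor named after its values were seen, went from 0.25 ± 0.26 to 0.56 ± 0.15 without that array.

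**Figure D5:**
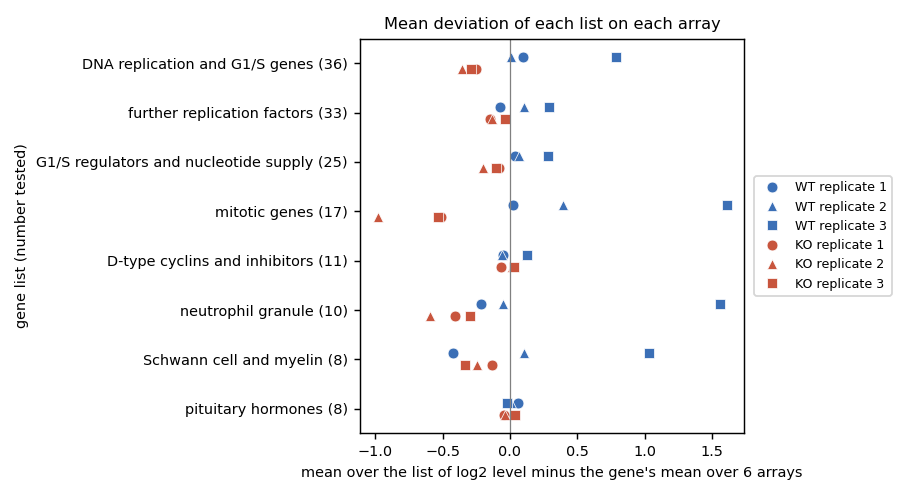
Mean over each gene list of the log2 level minus the gene's own mean over the 6 arrays, per array, with WT in blue and KO in red and circles, triangles and squares for replicates 1, 2 and 3. WT replicate 3 stands at 0.79 for the members, 1.61 for mitotic genes, 1.56 for neutrophil granule genes and 1.03 for Schwann cell and myelin genes, and at -0.025 for the pituitary hormones.

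Some transcripts of other cell types moved with the members on that array. The members' mean deviation was 0.79 on WT replicate 3, 0.095 and 0.011 on WT replicates 1 and 2, and between -0.36 and -0.25 on the KO arrays. The neutrophil granule list, 10 of whose 12 genes were tested, had a summed level of 1941% of the 75th percentile on WT replicate 3, compared with 693% and 861% on WT replicates 1 and 2 and with 546% to 556% in KO. Its genes that varied most were S100a8 (1.24 on WT replicate 3, -1.47 and -2.07 on WT replicates 1 and 2, -2.82 to -2.29 in KO), S100a9 (3.24 against 0.60 and 0.25, and -0.59 to 0.20 in KO) and Ngp, which was well above background on only 3 arrays. WT replicate 3 was the highest array in 7 of the 10 genes (19.2% of all genes). Of the others, Lcn2 was highest on WT replicate 2, Elane on WT replicate 1 and Ctsg on KO replicate 1. Retnlg and Mmp8 did not pass the filter. The Schwann cell and myelin list, all 8 genes tested, summed to 2204% on WT replicate 3, compared with 1283% and 1557% on WT replicates 1 and 2 and with 1406% to 1481% in KO, with Prx, a myelin protein gene of peripheral nerve, at 0.996 on that array and between -3.25 and -2.76 on the others. That array was the highest in 6 of these 8 genes, while Mag was highest on WT replicate 1 and Mbp on KO replicate 2. The erythroid list (7 of 10 genes tested) summed to between 21866% and 31403% in WT and between 12909% and 38383% in KO, and WT replicate 3 had the lowest of the WT sums. The sums of the lymphocyte, macrophage and endothelial lists on WT replicate 3 lay between those of the other WT arrays. The stem and folliculostellate list separated the groups, with sums of 906% to 1280% in WT and 1405% to 1650% in KO, and its gene Nes, which encodes an intermediate filament of progenitor cells, had a log2 fold change of 1.18 ± 0.29. The part of these cell types in the members' values was not tested.

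Both rows of the slide gave the same direction for most members, but only the upper row held WT replicate 3, the highest array in 33 of 36 members. The upper row held 2 arrays of each group, WT replicates 1 and 3 and KO replicates 1 and 3, and there all 36 members were below 0 with a median of -0.55 (-0.070 for all genes). The lower row held 1 array of each group, WT replicate 2 and KO replicate 2, and there 32 of the 36 were below 0, with a median of -0.25 (-0.039 for all genes), with no test.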

How the data were processed

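Total RNA of 6 pituitaries was labelled with Cy3, per the labels. Per the file headers, Agilent Feature Extraction 11.0.1.1 read the arrays of 1 slide in 1 scan. The deposited intensity values (gProcessedSignal) are background-subtracted and spatially detrended per the file headers, and not normalized between arrays. The value table from the authors holds log2 values, and the sources used here name only limma, in the submitters' processing notes, and no normalization or filter for it. The deposited flags are scored 0 or 1.

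Control spots and outlier spots were left out. The log2 signals of a probe's spots were averaged after subtraction of the 75th percentile over the array's spots. A probe had to be well above background on 3 or more arrays (36739 of 55681 were), and the probe with the highest mean stood for a gene. RefSeq accessions gave symbols through the GRCm38.p6 annotation (27656 probes, 20972 symbols). Of those tested, 16460 were named and 10426 unnamed. The groups were compared in R 4.3.3 with limma 3.58.1 (lmFit, eBayes, two-sided) and the data.table package, version 1.17.8, with Benjamini-Hochberg adjustment over all features. The steps were tested on simulated data.

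The members and lists were chosen with earlier results of these data known. All members are named. Values on every array are given for those with p under 0.05, the Mcm2 to Mcm7 subunits, Pcna, E2f1, Ccne1 and Ccne2, and up to 4 genes with the smallest p are named in each further list. The alternatives were normexp (offset 50), median centring, quantile normalization, the values of the authors, other filters and probe rules, array weights, trend with robust fitting, blocks for slide row and for replicate number, the upper row alone, an adjusted p under 0.1, and leaving out each array.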

Additional observations from a re-analysis of the deposited data

How the results depend on the processing

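Over 18 alternatives 0 members were called, and 30 of 36 kept a value below 0 in every alternative that measured them. The count of all genes called went from 0 to 24 with normexp, 27 in the authors' value table, 16 with median centring, 12 when all arrays had to be above background, 28 with trend and robust fitting, and 15 at an adjusted p under 0.1, and was 0 to 1 when single arrays were left out. The count of members at an unadjusted p under 0.05, all lower in KO, was 14 (8.81% of all genes were lower). It went to 22 with normexp (8.64% of all genes) and 5 with median centring (3.3%). With trend and robust fitting it was 22 (9.21%) and with array weights 23 (9.33%). It was 7 to 22 with single arrays left out. The lowest came without KO replicate 2 (5.78% of all genes) and the highest without WT replicate 2 (13%), so the share of all genes moved too. The members' median stayed between -0.57 and -0.29 with single arrays left out.

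The signs that turned were all of small values. With median centring Lig1 read 0.022, Mcm4 0.14, Pold1 0.030, Rfc3 0.010 and Tyms 0.0087. Quantile normalization gave 0.0042 for Cdc45, and normexp gave 0.025 for Mcm4. With single arrays left out Cdc45 ran from -0.32 to 0.019, Lig1 from -0.27 to 0.051 and Mcm4 from -0.072 to 0.056. The median centring shift accounts for its own turned signs by construction, and the cause of the others was not tested.

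Same-numbered KO and WT arrays share only a number: their deviations from the group means correlated across genes at 0.15, -0.18 and -0.083, and only the arrays numbered 1 correlated best with each other. With the replicate block 0 members were called and 16 were lower at an unadjusted p under 0.05 (7.4% of all genes). Dim probes limit Orc1, Cdc6 and Ccne2, whose signal over background was too low for a comparison.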
